A study of Bos taurus with 8 samples.

Results

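The primitive endoderm, mostly called hypoblast in cattle, and the trophectoderm are the extraembryonic layers of the blastocyst, and they were compared here in bovine embryos on day 9 after fertilization. Cells were taken by the class that the authors' cell table gives them, LB PE for the primitive endoderm and LB TE for the trophectoderm. LB PE held 25 cells and LB TE held 31 cells, of 286 cells with values in the whole series. All of them came from libraries labelled wildtype, each a pool of barcoded single cells of more than 1 age (days 8 and 9 in the libraries that hold these 2 classes), and the labels name no breed, sex or embryo for a cell. Polyadenylated RNA was reverse transcribed in each cell, amplified by PCR and pooled with that of other cells before the library was made. Replicate 3 held 14 LB PE cells and 21 LB TE cells, and replicate 5 held 9 of each. Replicate 2 held 2 LB PE cells and 1 LB TE cell, under the minimum of 3 cells for an average, so the comparison rests on 2 library averages per class. The remaining day 9 cells were of the epiblast class, LB EPI (45 cells, with averages in replicates 2, 3 and 5), and day 8 held the inner cell mass and trophectoderm classes MB ICM and MB TE. Libraries of embryos injected with BE3 RNA were not used.

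The trophectoderm is the outer epithelium of the blastocyst. It is polarized, sealed by tight junctions and desmosomes, pumps ions to fill the blastocyst cavity, and in ruminants it secretes interferon tau, the signal by which the mother recognizes pregnancy, and pregnancy-associated glycoproteins. The primitive endoderm forms from the inner cell mass under FGF signals, with GATA6, GATA4 and SOX17 among its transcription factors. It spreads beneath the epiblast and along the inside of the trophectoderm, deposits basement membrane, and later lines the yolk sac, where it makes apolipoproteins and other serum carriers.

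Levels are given as CPM, the reads of a gene after the assigned reads of each cell were scaled to a sum of 1000000, as means over the cells of a class within a library. In every pair of values the first is replicate 3 and the second replicate 5. CPM is a share of a cell's reads, so RNA per cell was not measured. Most markers were higher in the class they name. The summed level of 14 primitive endoderm markers was 7525 and 6376 CPM in LB PE, against 728 and 547 CPM in LB TE. That of 12 trophectoderm markers was 6772 and 2776 CPM in LB PE, against 43128 and 31794 CPM in LB TE. FN1 alone made up most of the first sum in LB PE, at 4472 and 4714 CPM. KRT8 (26444 and 20166 CPM) and KRT18 (11891 and 6065 CPM) made up most of the second in LB TE. The sums therefore say little about the other markers. Of the defining markers, SOX17 was at 0 in both classes, FOXA2 was at 4.41 and 0 CPM in LB PE, and CDX2, GATA2 and TFAP2A were at 0 in LB PE of replicate 5. The way the authors assigned the classes is not stated; where they used the expression of these same cells, lineage genes are no independent evidence that the classes differ.

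Depth differed between the classes. LB PE cells had a median of 39210 assigned reads (5703 to 223211) and LB TE cells a median of 196521 (44012 to 747345). At a common depth of 20000 reads, which leaves out 5 LB PE cells and no LB TE cell, the median cell had 4597 expected genes in LB PE and 4569 in LB TE, and without thinning 6260 in LB PE and 8926 in LB TE. Because of this gap, genes were also compared among cells of at least 90000 reads, a limit chosen after the depths were seen. That comparison held 4 and 5 LB PE cells and 15 and 9 LB TE cells in replicates 3 and 5. The 1 such cell of each class in replicate 2 was under the minimum of 3 cells. All 48 cell barcodes were used in more than 1 library, and 3 cells stood apart from their class. In replicate 3, 2 of the 14 LB PE cells had SOX2 at 858 and 682 CPM and NANOG at 555 and 472 CPM, with FN1 at 1335 and 1312 CPM, the lowest FN1 values of that library's LB PE cells. The LB TE cell with the most reads in replicate 3 (646626) had FN1 at 2191 CPM, where the next LB TE cell of that library had 313 CPM. No doublet caller was run, and whether these 3 cells are single cells of their class was not tested; they are part of the averages.

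The comparison tested 12540 genes and called 734 of them (5.85%) at an adjusted p under 0.05, 309 higher (2.46%) and 425 lower (3.39%) in LB PE. Adjusted p-values are from limma over all tested genes, and the log2 change is that of CPM + 10, LB PE minus LB TE, which understates the change of low genes. All 734 called genes changed the same way within replicate 3 and within replicate 5, and in 733 of them both LB PE values lay on one side of both LB TE values. Of all tested genes, 58.6% changed the same way in both libraries and 43.7% had classes that did not overlap, and the call was made from the same averages, so these counts are no separate support for the calls. The median log2 change of all tested genes was 0.02. Leaving out replicate 3 or 5 leaves 1 average per class, which is then assumed to vary like the other classes, and the log2 change becomes that of the remaining library. By this measure 615 genes were called without replicate 3 and 168 without replicate 5, and 78 of the 734 (45 higher and 33 lower) kept their call both times. The paragraphs below name, with the adjusted p, the genes whose call a left-out library ended.

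**Figure D1:**
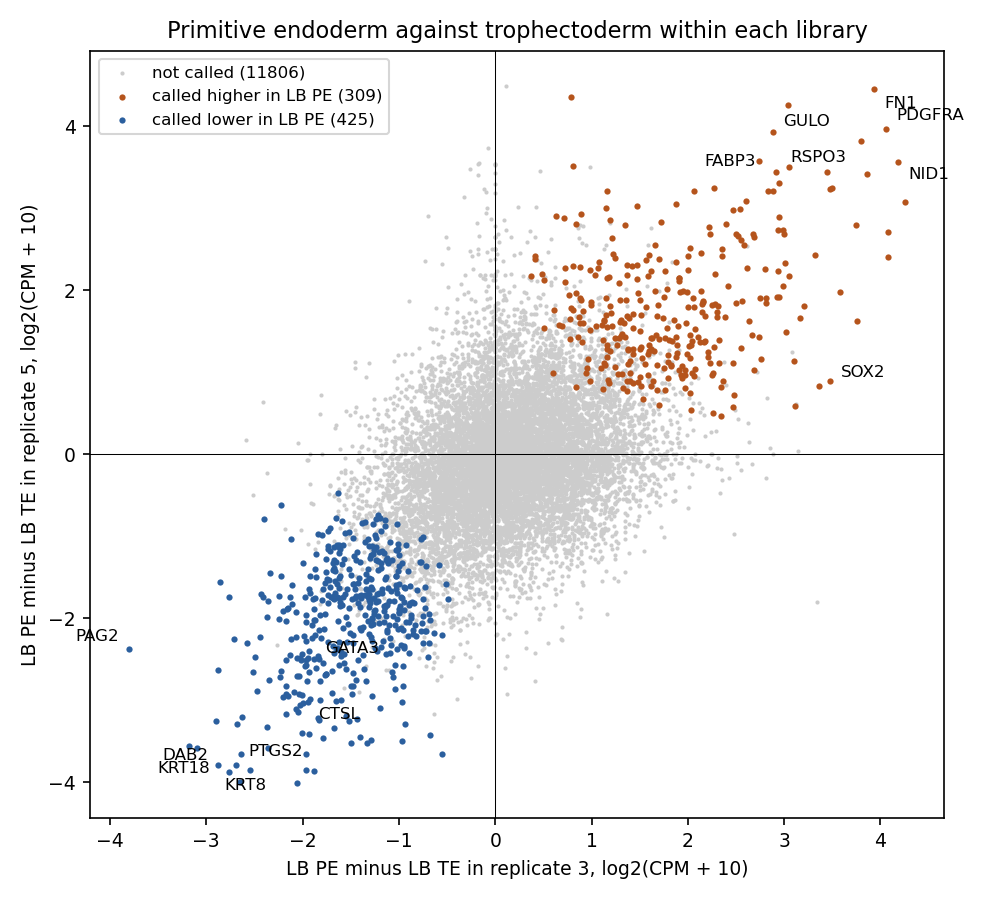
Difference between LB PE and LB TE in log2(CPM + 10), in replicate 3 on the horizontal axis and in replicate 5 on the vertical axis, for 12540 tested genes. Orange points are the 309 genes called higher in LB PE, blue points the 425 called lower and grey points genes that were not called; all called genes lie in the upper right or lower left quadrant.

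Several hypoblast transcription factors and the receptor PDGFRA were higher in LB PE. Of 21 hypoblast regulators, 19 were in the table and 15 were tested, of which 5 were called higher and 0 lower in LB PE, against 2.46% and 3.39% of all tested genes. Their median log2 change was 0.88, against 0.02 for all tested genes. The same shares and median of all tested genes are the background of every list below. The growth factor receptor PDGFRA, a surface marker of primitive endoderm in several mammals, was at 333 and 265 CPM in LB PE, against 10.6 and 7.52 CPM in LB TE (log2 change 4.01, SE 0.38, adjusted p = 4.81e-06). Both LB PE libraries were far above both LB TE libraries, and LB EPI was at 19.9 ± 7.11 CPM (SD, n = 3). GATA6, the early hypoblast factor, was at 533 and 259.7 CPM in LB PE, against 119.7 and 129.8 CPM in LB TE (log2 change 1.51, SE 0.39, adjusted p = 0.0238). It was well above zero in the trophectoderm too, where 21 of 21 cells of replicate 3 and 9 of 9 of replicate 5 had reads, and LB EPI was at 42.4 ± 15.3 CPM. Its later partner GATA4 was at 40.7 and 20.1 CPM in LB PE, against 1.29 and 1.61 CPM in LB TE (log2 change 1.77, SE 0.34, adjusted p = 0.00251). LB TE was near 0 for GATA4, which reached 10 CPM, the limit for testing, only in LB PE. The nuclear receptor HNF4A, a regulator of liver and visceral endoderm genes, was at 184 and 174 CPM in LB PE, against 14.3 and 18.6 CPM in LB TE (log2 change 2.84, SE 0.35, adjusted p = 5.66e-05). LB EPI was at 192 ± 54.9 CPM of HNF4A, a range that includes both LB PE values. GATA6 (adjusted p = 0.402) and GATA4 (0.0844) lost their calls without replicate 3.

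**Figure D2:**
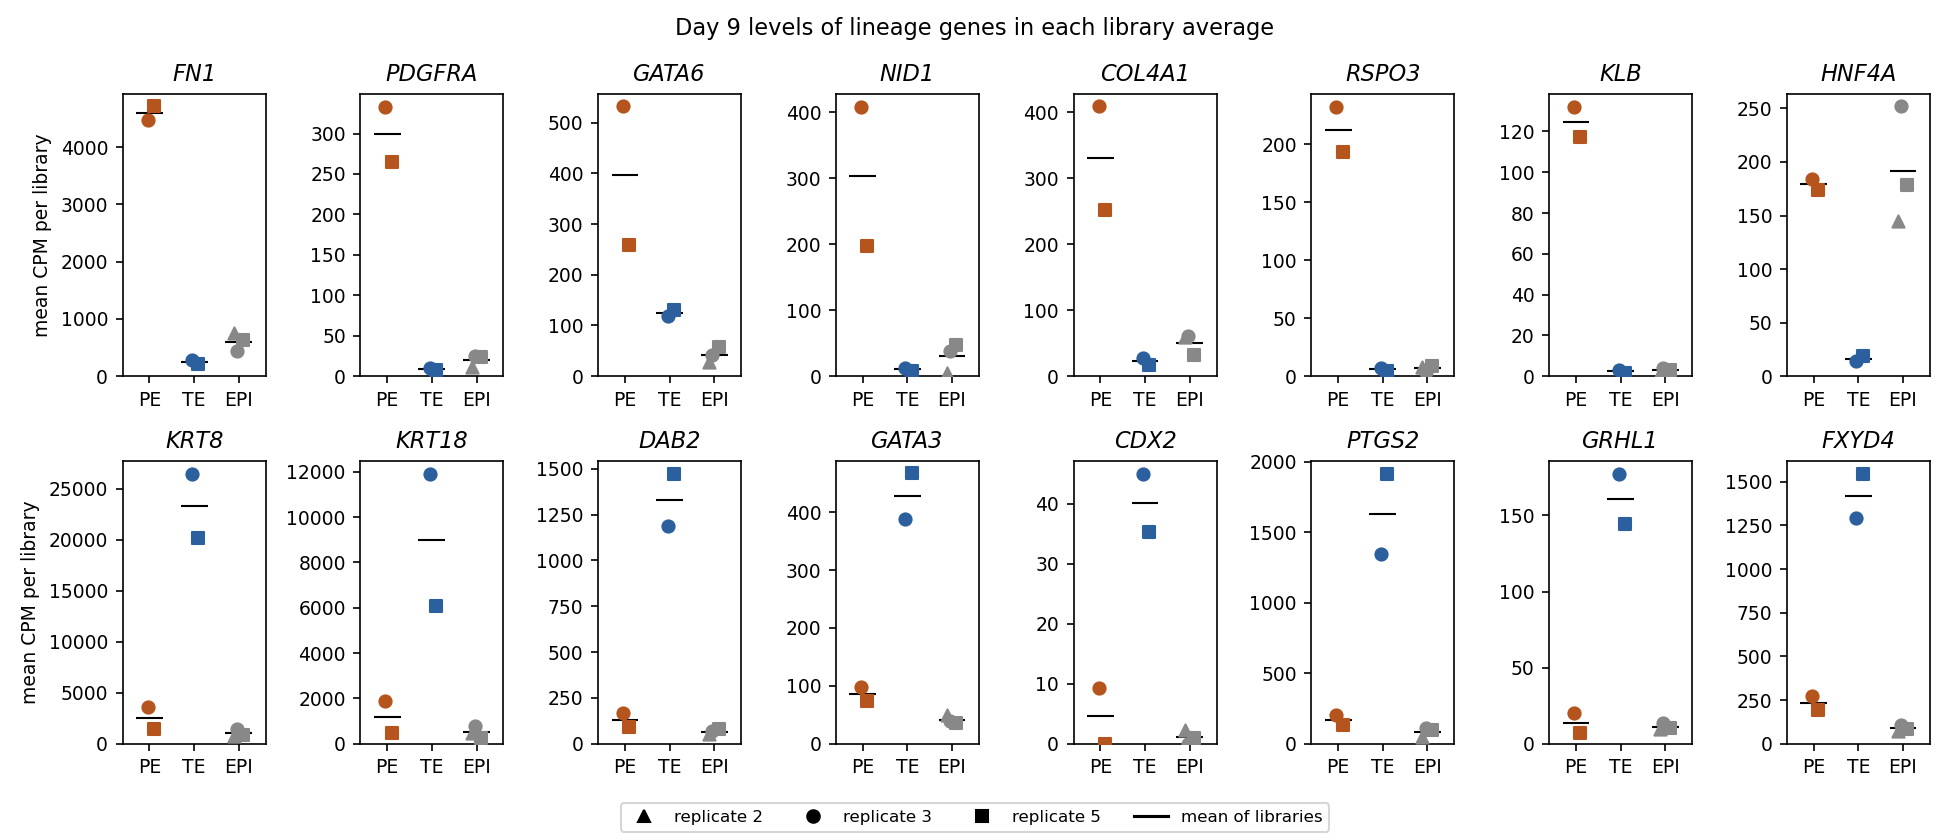
Mean CPM of 16 lineage genes in each library average of LB PE (orange), LB TE (blue) and LB EPI (grey) on day 9, with circles for replicate 3, squares for replicate 5, triangles for replicate 2 and bars for the mean of libraries; each panel has its own vertical axis from 0. In the upper row LB PE lies above LB TE in both libraries, and in the lower row it lies below.

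Several basement membrane genes were higher in LB PE, FN1 with the largest rise among the named genes. Of 30 basement membrane and matrix genes, 30 were in the table and 24 were tested, of which 9 were called higher and 0 lower in LB PE, with a median log2 change of 0.86. Fibroblast and mesenchyme genes moved with them, with 13 of 13 tested log2 changes positive and a median of 1.74. In LB PE 6 fibroblast markers summed to 266 and 1029 CPM, against 106 and 109.9 CPM in LB TE. Their sum in LB EPI was 187 and 309 CPM. The part of these fibroblast genes in the matrix levels was not tested. Fibronectin, FN1, which links cells to the matrix, was at 4472 and 4714 CPM in LB PE, against 283 and 206 CPM in LB TE (log2 change 4.20, SE 0.30, adjusted p = 3.9e-08). The lowest of the 23 LB PE cells of these libraries had 1312 CPM and the median LB TE cell 189 CPM in replicate 3 and 179 CPM in replicate 5. On day 8 FN1 was at 3438 ± 105 CPM in MB ICM and 403 ± 136 CPM in MB TE (SD, n = 3 each). Nidogen, NID1, which joins laminin to collagen IV networks, was at 408 and 197 CPM in LB PE, against 12.995 and 7.51 CPM in LB TE (log2 change 3.87, SE 0.60, adjusted p = 0.000677). The collagen IV chains COL4A1 (409 and 252 CPM in LB PE, against 27.2 and 17.6 CPM in LB TE, log2 change 3.37, adjusted p = 0.00139) and COL4A2 (106 and 43.5 CPM in LB PE, against 8.22 and 9.45 CPM in LB TE, log2 change 2.06, adjusted p = 0.00238) rose together. So did COL18A1, the core protein of a heparan sulfate proteoglycan, at 98.9 and 53.5 CPM in LB PE, against 5.63 and 3.25 CPM in LB TE (log2 change 2.53, SE 0.48, adjusted p = 0.00237). Fibulin 1, FBLN1, was at 146 and 128 CPM in LB PE, against 11.1 and 4.88 CPM in LB TE (log2 change 3.05, SE 0.54, adjusted p = 0.00151). The collagen chaperone SERPINH1 (log2 change 1.93, adjusted p = 0.00809), the collagen-binding SPARC (2.03, adjusted p = 0.00528) and agrin, AGRN (1.41, adjusted p = 0.0147), were called as well. SPARC was at 547 ± 273 CPM in LB PE (n = 2) and 692 ± 236 CPM in LB EPI (n = 3). COL4A2 (adjusted p = 0.108), COL18A1 (0.0951), FBLN1 (0.0552) and SERPINH1 (0.131) lost their calls without replicate 3. FBLN1 (adjusted p = 0.0983), SERPINH1 (0.0572), SPARC (0.144) and AGRN (0.295) lost their calls without replicate 5. SERPINH1 (log2 change 1.11, adjusted p = 0.0709), SPARC (0.90, adjusted p = 0.199) and AGRN (0.88, adjusted p = 0.108) were not called among cells of at least 90000 reads.

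The 3 chains of laminin 111, the laminin of the early embryo, did not pass the test. LAMA1 was at 76.1 and 23.7 CPM in LB PE, against 38.5 and 22.6 CPM in LB TE (log2 change 0.44, adjusted p = 0.749), LAMB1 at 285 and 85.3 CPM in LB PE, against 93.3 and 71.3 CPM in LB TE (0.87, adjusted p = 0.327) and LAMC1 at 164 and 49.0 CPM in LB PE, against 77.3 and 57.3 CPM in LB TE (0.41, adjusted p = 0.722). In replicate 3 all 3 chains were higher in LB PE, by 0.83, 1.51 and about 1 on the log2 scale for LAMA1, LAMB1 and LAMC1. In replicate 5 the differences were 0.05, 0.23 and -0.19, so the classes overlapped. LAMA1 had the opposite sign among cells of at least 90000 reads (log2 change -0.81, adjusted p = 0.193). DAG1, the dystroglycan that binds laminin at the cell surface, was at 98.1 and 21.0 CPM in LB PE, against 312 and 214 CPM in LB TE (log2 change -2.21, SE 0.69, adjusted p = 0.0798), and both LB PE values lay under both LB TE values. DAG1 passed the test under 8 alternatives, among them a fixed replicate block (adjusted p = 0.0327) and cells of at least 90000 reads (log2 change -1.94, adjusted p = 0.0025). Of 22 integrins and matrix receptors, 22 were in the table and 18 were tested, of which 1 was called higher and 0 lower in LB PE, with a median log2 change of 0.22; the called gene is FLRT3, described with adhesion below.

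APOE, APOA1 and APOA2, apolipoproteins of the kind made in quantity by yolk sac endoderm, were higher in LB PE. Of 31 apolipoprotein and secreted carrier genes, 23 were in the table and 17 were tested, of which 6 were called higher and 2 lower in LB PE, with a median log2 change of 0.88. The lower pair, CTSL and LRP2, is described with uptake genes below. APOE, which carries cholesterol and binds LDL receptors, was at 514 and 289 CPM in LB PE, against 53.1 and 16.4 CPM in LB TE (log2 change 3.28, SE 0.50, adjusted p = 0.000464). APOA1, the main protein of high density lipoprotein, was at 1911 and 1112 CPM in LB PE, against 241 and 228 CPM in LB TE (log2 change 2.59, SE 0.50, adjusted p = 0.00419). Its partner APOA2 was at 78.3 and 20.8 CPM in LB PE, against 4.16 and 0 CPM in LB TE (log2 change 2.13, SE 0.34, adjusted p = 0.000546). Both libraries kept the classes apart for each of these genes, although LB TE was well above 0 for APOA1. MTTP, which loads lipid onto nascent lipoproteins, was at 23.6 and 29.5 CPM in LB PE, against 1.85 and 0.743 CPM in LB TE (log2 change 1.69, SE 0.35, adjusted p = 0.00467). The fibrinogen chain FGB was at 6.23 and 19.1 CPM in LB PE, against 1.42 and 0 CPM in LB TE (log2 change 1.03, SE 0.27, adjusted p = 0.0266). Clusterin, CLU, an extracellular chaperone, was at 223 and 365 CPM in LB PE, against 124 and 22.7 CPM in LB TE (log2 change 2.16, SE 0.51, adjusted p = 0.0133), with a log2 difference of 0.80 in replicate 3 and 3.52 in replicate 5. Transthyretin, TTR, another yolk sac product, was at 0 in both classes. APOA1 (adjusted p = 0.0717) and MTTP (0.0637) lost their calls without replicate 3. APOE (adjusted p = 0.0577), APOA1 (0.0656), MTTP (0.169) and CLU (0.518) lost their calls without replicate 5. FGB lost its call without replicates 1 (adjusted p = 0.0552) and 2 (0.0734). Without replicate 5 no average of FGB reached 10 CPM, so it was not tested. In the full comparison APOA2 and FGB reached 10 CPM, the limit for testing, only in LB PE. APOE (log2 change 1.74, adjusted p = 0.12) and CLU (1.34, adjusted p = 0.301) were not called among cells of at least 90000 reads.

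Several FGF and receptor kinase genes were higher in LB PE. Of 25 PDGF and FGF signalling genes, 24 were in the table and 21 were tested, of which 7 were called higher and 0 lower in LB PE, with a median log2 change of 0.77. KLB, the co-receptor through which endocrine FGFs act, was at 132 and 117 CPM in LB PE, against 3.07 and 1.68 CPM in LB TE (log2 change 3.44, SE 0.37, adjusted p = 9.64e-06). FGFR4, a receptor that pairs with it, was at 143 and 106 CPM in LB PE, against 16.7 and 8.31 CPM in LB TE (log2 change 2.59, SE 0.37, adjusted p = 0.000238). LB TE was close to 0 for KLB, and LB EPI was at 2.83 ± 1.16 CPM for KLB and 34.6 ± 10.2 CPM for FGFR4. KIT, the receptor of stem cell factor, was at 121 and 257 CPM in LB PE, against 6.44 and 30.0 CPM in LB TE (log2 change 2.86, SE 0.51, adjusted p = 0.00156). On day 8 MB ICM was at 260 ± 10.3 CPM of KIT. Some genes that ERK signals are known to induce, or that restrain them, rose as well. The ETS factor ETV5 was at 34.1 and 13.54 CPM in LB PE, against 2.70 and 2.38 CPM in LB TE (log2 change 1.36, SE 0.32, adjusted p = 0.0112). The feedback inhibitor SPRY2 was at 73.7 and 48.5 CPM in LB PE, against 12.8 and 11.8 CPM in LB TE (log2 change 1.65, adjusted p = 0.0153). LB EPI was at 51.1 ± 3.42 CPM of SPRY2, between the 2 LB PE values. SPRED2, a relative of SPRY2, was at 40.4 and 45.8 CPM in LB PE, against 12.02 and 13.4 CPM in LB TE (log2 change 1.22, adjusted p = 0.0467). ETV5 reached 10 CPM, the limit for testing, only in LB PE. ETV5 (adjusted p = 0.233), SPRY2 (0.173) and SPRED2 (0.148) lost their calls without replicate 3. KIT (adjusted p = 0.0569), SPRY2 (0.114) and SPRED2 (0.27) lost their calls without replicate 5. SPRED2 lost its call also without replicates 2 (adjusted p = 0.081), 4 (0.0523) and 6 (0.0554). SPRED2 (log2 change 0.71, adjusted p = 0.226) was not called among cells of at least 90000 reads.

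Of the WNT, BMP, Nodal and JAK pathways few members were called. Of 32 WNT signalling genes, 30 were in the table and 17 were tested, of which 1 was called higher and 0 lower in LB PE, with a median log2 change of 0.03. The called gene was RSPO3, a secreted protein that strengthens WNT signals, at 232 and 193 CPM in LB PE, against 7.43 and 4.36 CPM in LB TE (log2 change 3.81, SE 0.40, adjusted p = 7.93e-06). LB EPI was at 6.98 ± 2.87 CPM. Of 31 BMP and Nodal signalling genes, 30 were in the table and 29 were tested, of which 0 were called higher and 0 lower in LB PE, with a median log2 change of 0.40. Of 26 IL6 family and JAK STAT genes, 25 were in the table and 18 were tested, of which 1 was called higher and 1 lower in LB PE, with a median log2 change of 0.45. The transcription factor STAT3 was at 53.9 and 20.5 CPM in LB PE, against 2.59 and 7.33 CPM in LB TE (log2 change 1.58, SE 0.41, adjusted p = 0.0217). The interleukin 11 receptor IL11RA, whose signal it can relay, was at 4.64 and 1.24 CPM in LB PE, against 17.2 and 36.7 CPM in LB TE (log2 change -1.47, SE 0.35, adjusted p = 0.0137). Receptor and factor changed in opposite directions. STAT3 (adjusted p = 0.362) lost its call without replicate 3. IL11RA (adjusted p = 0.359) lost its call without replicate 5.

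Adhesion and transport genes were among the largest rises. FLRT3, an adhesion protein that binds FGF receptors and latrophilins, was at 299 and 96.3 CPM in LB PE, against 6.16 and 2.58 CPM in LB TE (log2 change 3.67, SE 0.43, adjusted p = 2.33e-05). N-cadherin, CDH2, was at 54.9 and 31.3 CPM in LB PE, against 3.62 and 1.66 CPM in LB TE (log2 change 2.04, SE 0.40, adjusted p = 0.00299). The glutamate transporter SLC1A3 was at 204 and 144 CPM in LB PE, against 4.76 and 4.36 CPM in LB TE (log2 change 3.64, SE 0.39, adjusted p = 9.64e-06) and LB EPI at 3.31 ± 2.84 CPM. Its relative SLC1A1, which carries glutamate and cysteine, went the other way, at 7.14 and 2.91 CPM in LB PE, against 56.7 and 40.5 CPM in LB TE (log2 change -1.96, SE 0.35, adjusted p = 0.00138). The transporters of basic amino acids SLC7A7 (log2 change 1.73, adjusted p = 0.00601) and SLC7A9 (1.12, adjusted p = 0.008) rose, and the bile acid transporter SLC10A1 fell to 52.8 and 9.93 CPM in LB PE, against 312 and 229.8 CPM in LB TE (log2 change -2.97, SE 0.47, adjusted p = 0.000546). Of 40 amino acid, sugar and related transporters, 37 were in the table and 30 were tested, of which 3 were called higher and 2 lower in LB PE, with a median log2 change of 0.16. The bicarbonate cotransporter SLC4A7 was at 181 and 102 CPM in LB PE, against 4.23 and 6.02 CPM in LB TE (log2 change 3.27, SE 0.41, adjusted p = 5.66e-05). GULO, the last enzyme of vitamin C synthesis, was at 74.8 and 226 CPM in LB PE, against 1.48 and 5.49 CPM in LB TE (log2 change 3.41, SE 0.47, adjusted p = 0.000161). GPCPD1, which breaks down glycerophosphocholine, was at 832 and 674 CPM in LB PE, against 65.8 and 62.9 CPM in LB TE (log2 change 3.35, SE 0.39, adjusted p = 2.33e-05). LB TE was at or under 66 CPM for SLC4A7, GULO and GPCPD1, and every LB PE value was higher. LB EPI was at 131 ± 40.9 CPM of SLC7A7 and 417 ± 45.9 CPM of GPCPD1. MB ICM on day 8 was at 955 ± 18.3 CPM of GPCPD1. CDH2 (adjusted p = 0.106), SLC7A7 (0.123) and SLC7A9 (0.103) lost their calls without replicate 3. SLC1A1 (adjusted p = 0.0555), SLC7A7 (0.0572), SLC7A9 (0.178) and SLC10A1 (0.0716) lost their calls without replicate 5. SLC7A9 reached 10 CPM, the limit for testing, only in LB PE.

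2 fatty acid carriers rose, and 3 sterol synthesis genes fell. Of 26 lipid droplet and fatty acid carrier genes, 24 were in the table and 20 were tested, of which 3 were called higher and 1 lower in LB PE, with a median log2 change of 0.06. FABP3, a cytoplasmic fatty acid carrier, was at 579 and 1305 CPM in LB PE, against 68.2 and 111 CPM in LB TE (log2 change 3.18, SE 0.44, adjusted p = 0.000276), and the fatty acid transporter SLC27A4 was at 148 and 140.0 CPM in LB PE, against 20.2 and 11.4 CPM in LB TE (log2 change 2.601, SE 0.43, adjusted p = 0.000772). DGAT2, which makes triglyceride, was at 24.2 and 26.2 CPM in LB PE, against 1.95 and 1.18 CPM in LB TE (log2 change 1.61, SE 0.39, adjusted p = 0.0144). ACSL3, which activates fatty acids, fell to 675 and 284 CPM in LB PE, against 1194 and 919 CPM in LB TE (log2 change -1.24, SE 0.34, adjusted p = 0.0331). Of 32 sterol and fatty acid synthesis genes, 30 were in the table and 30 were tested, of which 0 were called higher and 3 lower in LB PE, with a median log2 change of -1.22. The 3 called genes were HMGCS1, an early step of the pathway, at 269.6 and 49.5 CPM in LB PE, against 849.6 and 345 CPM in LB TE (log2 change -2.10, SE 0.53, adjusted p = 0.0236), CYP51A1 (-2.22, adjusted p = 0.0172) and MSMO1 (-2.08, adjusted p = 0.0196), which remove methyl groups from the sterol ring. Of the 30 tested members 27 had a negative log2 change, and FDFT1, which makes squalene, was at 186 and 36.0 CPM in LB PE, against 374 and 185 CPM in LB TE (log2 change -1.53, SE 0.46, adjusted p = 0.0517), with overlapping classes. FDFT1 passed the test under 10 alternatives, among them a fixed replicate block (adjusted p = 0.0127) and cells of at least 90000 reads (0.0427). Among cells of at least 90000 reads the list's median log2 change was -1.32. DGAT2 (adjusted p = 0.113), ACSL3 (0.0577), CYP51A1 (0.0714) and MSMO1 (0.247) lost their calls without replicate 3. DGAT2 (adjusted p = 0.151), ACSL3 (0.362), HMGCS1 (0.145), CYP51A1 (0.169) and MSMO1 (0.0656) lost their calls without replicate 5. DGAT2 (log2 change 0.65, adjusted p = 0.373) was not called among cells of at least 90000 reads.

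Several transcription factors of the trophectoderm were lower in LB PE. Of 30 trophectoderm transcription factors, 30 were in the table and 24 were tested, of which 0 were called higher and 7 lower in LB PE, with a median log2 change of -0.99. GATA3, which drives trophectoderm genes, was at 98.4 and 74.3 CPM in LB PE, against 389 and 467 CPM in LB TE (log2 change -2.19, SE 0.30, adjusted p = 0.000161). CDX2, a homeobox factor of the same lineage, was at 9.29 and 0 CPM in LB PE, against 44.9 and 35.3 CPM in LB TE (log2 change -1.84, SE 0.40, adjusted p = 0.00695). CDX2 was low in single cells of the trophectoderm too, with reads in 14 of 21 LB TE cells of replicate 3 and 7 of 9 of replicate 5. GRHL1, a regulator of epithelial genes, was at 20.3 and 6.71 CPM in LB PE, against 177 and 144 CPM in LB TE (log2 change -2.92, SE 0.35, adjusted p = 3.65e-05). The homeobox factors DLX3 (2.09 and 0.996 CPM in LB PE, against 20.3 and 35.2 CPM in LB TE, log2 change -1.68, adjusted p = 0.00251) and DLX4 (9.12 and 5.36 CPM in LB PE, against 93.1 and 39.9 CPM in LB TE, -2.07, adjusted p = 0.00166), both known from the placenta, fell as well. ELF5, an ETS factor of trophoblast stem cells in the mouse, was at 0.656 and 0 CPM in LB PE, against 28.2 and 9.57 CPM in LB TE (log2 change -1.40, SE 0.33, adjusted p = 0.0112). TEAD3, a partner of YAP, was at 28.6 and 10.99 CPM in LB PE, against 64.3 and 63.0 CPM in LB TE (log2 change -1.37, SE 0.35, adjusted p = 0.0215). Other factors did not pass the test, namely GATA2 (log2 change -1.02, adjusted p = 0.201), TFAP2A (-1.12, adjusted p = 0.0518), ELF3 (-1.35, adjusted p = 0.061) and TFAP2C (-0.58, adjusted p = 0.332). ELF3 passed it under 12 alternatives, among them a fixed replicate block (adjusted p = 0.0432) and cells of at least 90000 reads (log2 change -1.88, adjusted p = 0.00433), and TFAP2A passed it under 5 alternatives (lowest adjusted p = 0.0058). TFAP2C was at 83.3 and 82.8 CPM in LB PE, against 129.7 and 128 CPM in LB TE, and LB EPI was at 183 ± 29.8 CPM. CDX2 (adjusted p = 0.185), DLX3 (0.148), ELF5 (0.0663) and TEAD3 (0.324) lost their calls without replicate 5.

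KRT8, KRT18 and KRT19, keratins of simple epithelia and filament proteins of the trophectoderm, were lower in LB PE. Of 18 keratin and intermediate filament genes, 17 were in the table and 15 were tested, of which 0 were called higher and 5 lower in LB PE, with a median log2 change of -0.53, and 7 of the 15 changes were positive. KRT8 was at 3580.4 and 1446 CPM in LB PE, against 26444 and 20166 CPM in LB TE (log2 change -3.34, SE 0.31, adjusted p = 4.81e-06), its partner KRT18 at 1895 and 469.9 CPM in LB PE, against 11891 and 6065 CPM in LB TE (log2 change -3.15, SE 0.46, adjusted p = 0.000855) and KRT19 at 1508 and 783 CPM in LB PE, against 4845 and 4253 CPM in LB TE (log2 change -2.05, SE 0.40, adjusted p = 0.00348). The classes did not overlap even in single cells of KRT8, whose highest LB PE cell had 8241 CPM and lowest LB TE cell 10208 CPM in these libraries. In LB PE of replicate 5 the keratin level moved with depth: the 5 cells of at least 90000 reads had KRT8 between 341 and 619 CPM, and the 4 shallower cells had a median of 3014 CPM. Spearman's rho between reads and level over those 9 cells was -0.85 for KRT8 and -0.92 for KRT18, and over the 14 LB PE cells of replicate 3 it was -0.31 for each gene; the part of depth in this was not tested. Among cells of at least 90000 reads the log2 changes were larger, -4.26 for KRT8 (adjusted p = 0.00047) and -3.95 for KRT18 (adjusted p = 0.00659). Epiplakin, EPPK1, and desmoplakin, DSP, which organize keratin filaments, changed by -2.54 (adjusted p = 0.000677) and -2.49 (adjusted p = 0.000767). KRT7, another keratin of simple epithelia, was at 69.2 and 101 CPM in LB PE, against 41.5 and 12.9 CPM in LB TE, and did not pass the test (log2 change 1.45, SE 0.49, adjusted p = 0.0881). KRT7 passed it, still higher in LB PE, under 5 alternatives, among them cells of at least 90000 reads (log2 change 2.13, adjusted p = 0.0152). Keratin genes have near-identical copies in mammalian genomes, so the split of their reads is uncertain. KRT19 (adjusted p = 0.19), EPPK1 (0.0761) and DSP (0.079) lost their calls without replicate 5.

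**Figure D3:**
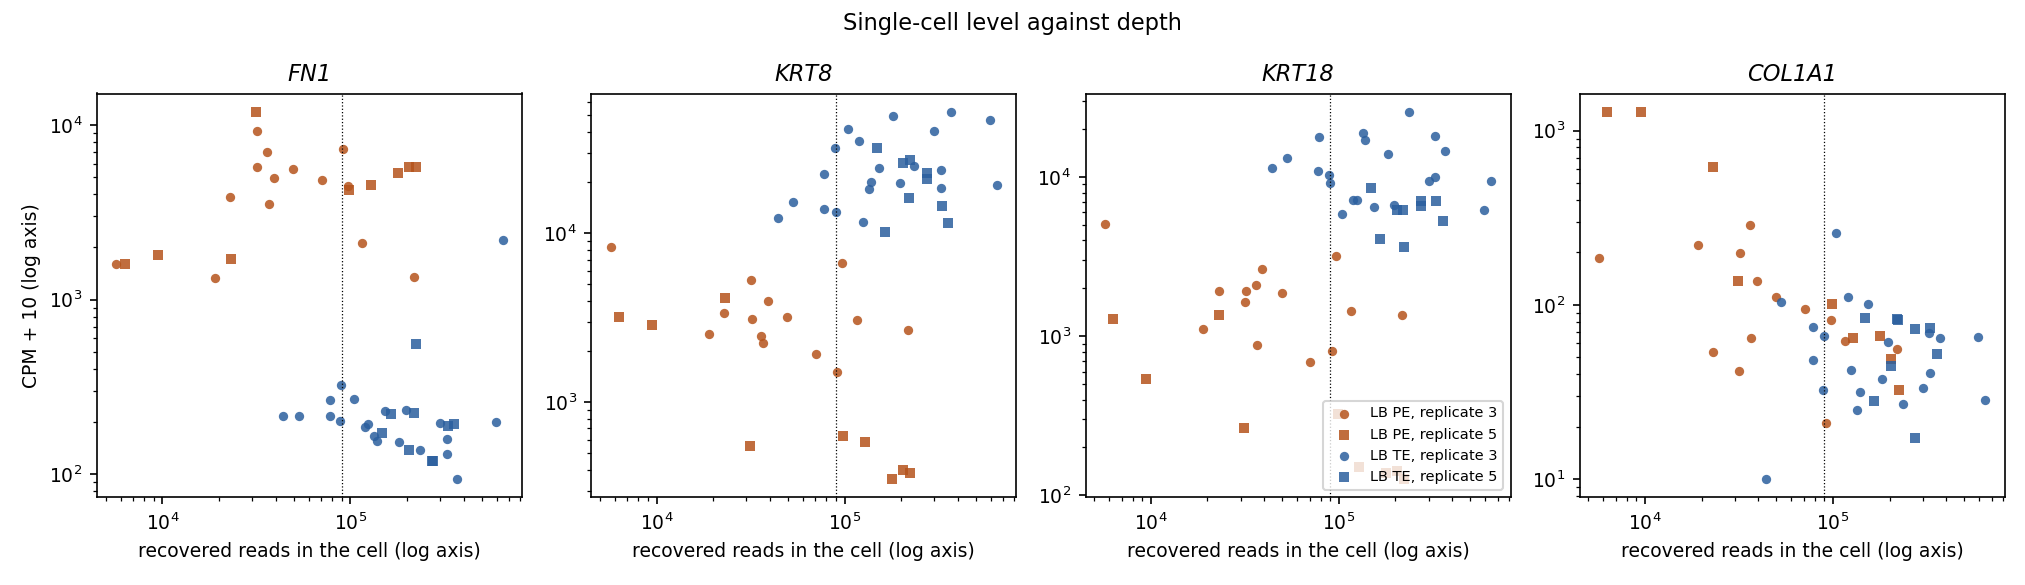
Level of FN1, KRT8, KRT18 and COL1A1 in single cells, as CPM + 10 on a log axis, against the assigned reads of the cell on a log axis, with LB PE in orange, LB TE in blue, circles for replicate 3 and squares for replicate 5; the dotted line marks 90000 reads. The shallow LB PE cells of replicate 5 lie above the deep ones for the keratins and COL1A1, while FN1 parts the classes at all depths except for 1 LB TE cell at 2191 CPM.

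Several desmosome and tight junction genes were lower in LB PE, and 3 junction and polarity genes were higher. Of 48 cell junction and polarity genes, 47 were in the table and 46 were tested, of which 3 were called higher and 9 lower in LB PE, with a median log2 change of -0.50. Desmoplakin, DSP, was at 122 and 63.1 CPM in LB PE, against 553 and 534 CPM in LB TE, and the desmosomal cadherin DSC2 at 109 and 49.2 CPM in LB PE, against 457 and 343 CPM in LB TE (log2 change -2.28, SE 0.46, adjusted p = 0.00389). DSG2 (log2 change -1.41, adjusted p = 0.0455), plakoglobin, JUP (-1.68, adjusted p = 0.00452), and the desmosome protein PERP (-1.56, adjusted p = 0.0016) fell with them. Of the claudins, which seal tight junctions, CLDN6 was at 1679 and 1582 CPM in LB PE, against 3642 and 3962 CPM in LB TE (log2 change -1.22, SE 0.26, adjusted p = 0.00537), and CLDN3 (-2.20, adjusted p = 0.0416) and CLDN23 (-1.84, adjusted p = 0.0195) fell too, while CLDN4 did not pass the test (-0.99, adjusted p = 0.23), except under 2 alternatives (cells of at least 90000 reads, adjusted p = 0.0467, and only both classes in a fit with a fixed replicate block, 0.0466). Prostasin, PRSS8, a membrane protease that activates sodium channels, was at 51.1 and 24.9 CPM in LB PE, against 447 and 324 CPM in LB TE (log2 change -3.08, SE 0.39, adjusted p = 6.1e-05). The inhibitor of such proteases, SPINT2, went the other way, at 382 and 568 CPM in LB PE, against 204 and 171 CPM in LB TE (log2 change 1.27, SE 0.30, adjusted p = 0.0138), as did the polarity kinase PRKCI, at 205 and 178 CPM in LB PE, against 44.3 and 51.9 CPM in LB TE (log2 change 1.79, SE 0.38, adjusted p = 0.00537), and CDH2 (2.04, adjusted p = 0.00299). LB EPI was at 504 ± 34.7 CPM of PRKCI, above both LB PE values. JUP (adjusted p = 0.0849), CLDN3 (0.123), CLDN23 (0.0995), PRKCI (0.127) and CDH2 (0.106) lost their calls without replicate 3. DSP (adjusted p = 0.079), DSC2 (0.133), DSG2 (0.355), JUP (0.062), PERP (0.0908), CLDN6 (0.176), CLDN3 (0.397), CLDN23 (0.211), SPINT2 (0.305) and PRKCI (0.0755) lost their calls without replicate 5. DSG2 lost its call also without replicates 1 (adjusted p = 0.0567), 2 (0.0775), 4 (0.0633) and 6 (0.0533).

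Several genes of the apical surface and its actin core were lower in LB PE. Of 43 actin, microvillus and apical membrane genes, 40 were in the table and 36 were tested, of which 2 were called higher and 11 lower in LB PE, with a median log2 change of -0.59. Ezrin, EZR, which ties microvilli to actin, was at 1024 and 755 CPM in LB PE, against 2539 and 2683 CPM in LB TE (log2 change -1.56, SE 0.27, adjusted p = 0.00128). Plastin 1, PLS1, which bundles actin in microvilli, was at 195 and 37.8 CPM in LB PE, against 846 and 761 CPM in LB TE (log2 change -3.03, SE 0.53, adjusted p = 0.00151). ARPC1B, a subunit of the actin-branching Arp2/3 complex, was at 62.8 and 17.3 CPM in LB PE, against 416 and 386 CPM in LB TE (log2 change -3.20, SE 0.50, adjusted p = 0.000523). PLS1 and ARPC1B fell in each library, PLS1 by 2.06 in replicate 3 and 4.01 in replicate 5 on the log2 scale. The calcium-binding S100A14 (371 and 293 CPM in LB PE, against 1450.1 and 1901 CPM in LB TE, log2 change -2.30, adjusted p = 9.57e-05), S100A16 (-1.96, adjusted p = 0.00112) and S100A10 (-1.22, adjusted p = 0.0178) fell, as did the membrane-binding annexins ANXA1 (-1.95, adjusted p = 0.0046), ANXA2 (-1.86, adjusted p = 0.00139) and ANXA3 (-1.70, adjusted p = 0.0372). The filament capper CAPG changed by -1.95 (adjusted p = 0.00156), TAGLN2, which binds actin filaments, by -1.66 (adjusted p = 0.000346), the motor MYO6 by -1.36 (adjusted p = 0.0235) and beta-actin, ACTB, by -0.93 (adjusted p = 0.00849); with quantile normalization the ACTB value was 0. 2 members rose. Gelsolin, GSN, which severs actin filaments, was at 115 and 97.1 CPM in LB PE, against 15.3 and 20.5 CPM in LB TE (log2 change 2.06, SE 0.47, adjusted p = 0.0107). The myosin light chain MYL9 was at 199 and 141 CPM in LB PE, against 48.0 and 38.6 CPM in LB TE (log2 change 1.75, SE 0.37, adjusted p = 0.00537). LB EPI was at 230 ± 98.8 CPM of MYL9. S100A10 (adjusted p = 0.326), ANXA2 (0.052), ANXA3 (0.0966), ACTB (0.147), GSN (0.186) and MYL9 (0.0857) lost their calls without replicate 3. EZR (adjusted p = 0.0923), PLS1 (0.0833), S100A10 (0.0674), ANXA1 (0.107), ANXA2 (0.0656), ANXA3 (0.234), CAPG (0.0896), MYO6 (0.409), ACTB (0.145), GSN (0.111) and MYL9 (0.0655) lost their calls without replicate 5. ANXA3 lost its call also without replicates 1 (adjusted p = 0.0574) and 4 (0.0527) and MYO6 without replicate 2 (0.0524). GSN (log2 change 1.29, adjusted p = 0.107) and MYL9 (1.41, adjusted p = 0.0763) were not called among cells of at least 90000 reads.

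Several ion transport and uptake genes were lower in LB PE. Of 31 fluid and ion transport genes, 28 were in the table and 19 were tested, of which 0 were called higher and 4 lower in LB PE, with a median log2 change of -0.25. ATP1B3, a beta subunit of the sodium pump, was at 989 and 876 CPM in LB PE, against 2539 and 2916 CPM in LB TE (log2 change -1.54, SE 0.26, adjusted p = 0.00109). FXYD4, a regulator of that pump, was at 273 and 190.2 CPM in LB PE, against 1294 and 1545 CPM in LB TE (log2 change -2.58, SE 0.44, adjusted p = 0.00117). The sodium-proton exchanger SLC9A3 was at 17.7 and 1.74 CPM in LB PE, against 106 and 91.0 CPM in LB TE (log2 change -2.59, SE 0.40, adjusted p = 0.000464). ATP6V0A4, a subunit of the proton pump, was at 149.8 and 51.0 CPM in LB PE, against 419.7 and 338 CPM in LB TE (log2 change -1.97, SE 0.38, adjusted p = 0.00255). Of 44 endocytosis and lysosome genes, 43 were in the table and 42 were tested, of which 0 were called higher and 11 lower in LB PE, with a median log2 change of -0.91. DAB2, a clathrin adaptor that is a marker of extraembryonic endoderm in the mouse, was at 167 and 90.4 CPM in LB PE, against 1189.6 and 1471 CPM in LB TE (log2 change -3.32, SE 0.35, adjusted p = 7.93e-06). Its cargo receptor megalin, LRP2, which the mouse visceral endoderm also uses, was at 294 and 134 CPM in LB PE, against 1234 and 1086 CPM in LB TE (log2 change -2.48, SE 0.38, adjusted p = 0.000443). Both genes were lower in LB PE in each library, and LB EPI was at 66.0 ± 13.2 CPM for DAB2 and 128 ± 53.7 CPM for LRP2. The folate receptor FOLR1, at 763 and 2294 CPM in LB PE, against 844 and 1027 CPM in LB TE, did not pass the test (log2 change 0.50, adjusted p = 0.463), and the sign changed without replicate 5 (-0.14). Clathrin CLTA (-0.90, adjusted p = 0.0305) and CLTC (-1.04, adjusted p = 0.0496), the adaptor subunit AP2M1 (-1.45, adjusted p = 0.0429) and the recycling GTPase RAB11A (-1.64, adjusted p = 0.00065) fell. The lysosomal proteases CTSL, at 48.7 and 106 CPM in LB PE, against 216 and 938 CPM in LB TE (log2 change -2.49, SE 0.53, adjusted p = 0.00771), CTSZ (-2.18, adjusted p = 0.00166) and CTSA (-1.59, adjusted p = 0.00393), progranulin, GRN (-1.72, adjusted p = 0.0138), and the lysosomal channel MCOLN1 (-2.16, adjusted p = 0.00619) fell too. CLTA (adjusted p = 0.073), CLTC (0.0612), CTSA (0.0867) and GRN (0.113) lost their calls without replicate 3. ATP1B3 (adjusted p = 0.0956), SLC9A3 (0.0674), ATP6V0A4 (0.145), LRP2 (0.0619), CLTA (0.282), CLTC (0.417), AP2M1 (0.385), CTSL (0.107), CTSZ (0.0674), CTSA (0.0596), GRN (0.0879) and MCOLN1 (0.15) lost their calls without replicate 5. CLTA lost its call also without replicates 1 (adjusted p = 0.0574) and 2 (0.0597), CLTC without replicates 1 (0.073), 2 (0.0603), 4 (0.0569) and 6 (0.0506) and AP2M1 without replicates 1 (0.0625), 2 (0.0685) and 4 (0.0555).

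Ruminant placental genes were lower in LB PE. Of 31 ruminant placental genes, 13 were in the table and 11 were tested, of which 0 were called higher and 6 lower in LB PE, with a median log2 change of -1.30. Interferon tau, here the gene IFNT3, was at 52.7 and 11.7 CPM in LB PE, against 556 and 247 CPM in LB TE (log2 change -3.37, SE 0.70, adjusted p = 0.00802). The pregnancy-associated glycoprotein PAG2 was at 40.5 and 30.9 CPM in LB PE, against 694 and 203 CPM in LB TE (log2 change -3.09, SE 0.49, adjusted p = 0.000546). PAG1 was at 0.735 and 0 CPM in LB PE, against 15.4 and 10.3 CPM in LB TE (log2 change -1.13, SE 0.33, adjusted p = 0.0446). The trophoblast Kunitz domain protein TKDP1 was at 22.4 and 24.4 CPM in LB PE, against 117 and 195 CPM in LB TE (log2 change -2.27, SE 0.41, adjusted p = 0.00139). PLAC8, a gene of the early bovine trophoblast, was at 659 and 527 CPM in LB PE, against 2959 and 4121 CPM in LB TE (log2 change -2.55, SE 0.32, adjusted p = 5.71e-05). IFNT, PAG and TKDP genes belong to families of near-identical copies, so which member the reads came from is uncertain. IFNT3 and PAG2 were above 0 in both LB PE libraries and at 17.7 ± 5.30 and 16.9 ± 7.46 CPM in LB EPI. DNASE1L3, a secreted nuclease, was at 64.9 and 1.54 CPM in LB PE, against 459.5 and 175 CPM in LB TE (log2 change -3.33, SE 0.63, adjusted p = 0.00322). IFNT3 (adjusted p = 0.0627), PAG2 (0.0592) and PAG1 (0.137) lost their calls without replicate 3. IFNT3 (adjusted p = 0.157), PAG1 (0.227), TKDP1 (0.0588) and DNASE1L3 (0.0923) lost their calls without replicate 5. PAG1 lost its call also without replicates 1 (adjusted p = 0.0654), 2 (0.0668), 4 (0.0516) and 6 (0.053).

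The prostaglandin pathway was lower at several steps. Of 26 prostaglandin and steroid synthesis genes, 23 were in the table and 21 were tested, of which 0 were called higher and 8 lower in LB PE, with a median log2 change of -0.51. PLA2G4A, which frees arachidonic acid, was at 4.997 and 10.1 CPM in LB PE, against 31.5 and 37.7 CPM in LB TE (log2 change -1.36, SE 0.35, adjusted p = 0.0232). PTGS2, which turns it into the prostaglandin precursor, was at 201 and 129 CPM in LB PE, against 1349 and 1913 CPM in LB TE (log2 change -3.24, SE 0.47, adjusted p = 0.000385). PTGES, the prostaglandin E synthase, was at 46.4 and 45.6 CPM in LB PE, against 192 and 297 CPM in LB TE (log2 change -2.15, SE 0.41, adjusted p = 0.00251). AKR1B1, a prostaglandin F synthase in cattle, was at 57.4 and 31.6 CPM in LB PE, against 228 and 274 CPM in LB TE (log2 change -2.29, SE 0.45, adjusted p = 0.00314). All 4 were lower in LB PE in each library. Of the steroid genes, CYP11A1, which makes pregnenolone, was at 34.8 and 6.37 CPM in LB PE, against 278 and 150.4 CPM in LB TE (log2 change -2.99, SE 0.67, adjusted p = 0.0119). HSD3B1, the next step to progesterone, was at 19.9 and 11.6 CPM in LB PE, against 210.0 and 124 CPM in LB TE (log2 change -2.76, SE 0.52, adjusted p = 0.00248). HSD17B11 (-1.26, adjusted p = 0.0345) and the estrogen sulfotransferase SULT1E1 (-0.97, adjusted p = 0.0229) fell as well. SULT1E1 was at 0 and 0.498 CPM in LB PE, against 12.1 and 8.25 CPM in LB TE. It reached 10 CPM, the limit for testing, only in LB TE of replicate 3. PLA2G4A (adjusted p = 0.149) and CYP11A1 (0.0764) lost their calls without replicate 3. PLA2G4A (adjusted p = 0.164), PTGES (0.111), AKR1B1 (0.185), CYP11A1 (0.211), HSD3B1 (0.0912), HSD17B11 (0.465) and SULT1E1 (0.168) lost their calls without replicate 5. HSD17B11 lost its call also without replicate 1 (adjusted p = 0.0522) and SULT1E1 without replicate 2 (0.0624).

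Hippo pathway members moved both ways. Of 24 Hippo pathway genes, 21 were in the table and 21 were tested, of which 2 were called higher and 2 lower in LB PE, with a median log2 change of 0.03. The co-activator TAZ, gene WWTR1, was at 293 and 146 CPM in LB PE, against 66.1 and 57.0 CPM in LB TE (log2 change 1.61, SE 0.41, adjusted p = 0.0205). ANKRD1, a known target of YAP and TAZ, was at 104 and 162 CPM in LB PE, against 21.1 and 10.8 CPM in LB TE (log2 change 2.46, SE 0.61, adjusted p = 0.0208). Angiomotin, AMOT, which binds YAP and holds it out of the nucleus, was at 20.3 and 24.0 CPM in LB PE, against 111 and 75.5 CPM in LB TE (log2 change -1.66, SE 0.40, adjusted p = 0.014), and TEAD3 fell as given above. WWTR1 (adjusted p = 0.247) and AMOT (0.177) lost their calls without replicate 3. WWTR1 (adjusted p = 0.0569), ANKRD1 (0.309), AMOT (0.086) and TEAD3 (0.324) lost their calls without replicate 5. ANKRD1 (log2 change 0.78, adjusted p = 0.424) was not called among cells of at least 90000 reads.

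6 genes of the epiblast and pluripotency list were higher in LB PE. They include ETV5, given with the FGF genes above, which was at 1.75 ± 0.78 CPM in LB EPI. Of 33 epiblast and pluripotency genes, 31 were in the table and 29 were tested, of which 6 were called higher and 0 lower in LB PE, with a median log2 change of 0.67. OTX2, a homeobox factor of epiblast and visceral endoderm in the mouse, was at 367 and 119.8 CPM in LB PE, against 12.4 and 14.6 CPM in LB TE (log2 change 3.24, SE 0.45, adjusted p = 0.000161), and LB EPI was at 79.3 ± 24.5 CPM. POU5F1 was at 162 and 98.8 CPM in LB PE, against 26.3 and 45.6 CPM in LB TE (log2 change 1.61, SE 0.36, adjusted p = 0.00854). DPPA3 was at 95.0 and 178 CPM in LB PE, against 17.2 and 37.5 CPM in LB TE (log2 change 1.97, SE 0.42, adjusted p = 0.00623). SOX2 was at 179 and 17.0 CPM in LB PE, against 6.97 and 4.56 CPM in LB TE (log2 change 2.18, SE 0.56, adjusted p = 0.025), with log2 differences of 3.48 in replicate 3 and 0.89 in replicate 5. The 2 LB PE cells that stood apart held 61.5% of the summed SOX2 level of LB PE in replicate 3, and the other 12 cells averaged 80.2 CPM. NANOG was at 168 and 128 CPM in LB PE, against 22.1 and 82.9 CPM in LB TE (log2 change 1.52, SE 0.40, adjusted p = 0.0263), and the same 12 cells averaged 109.8 CPM in place of 168 CPM. LB EPI had 201 ± 31.6 CPM of SOX2 and 948 ± 248 CPM of NANOG. TDGF1, a Nodal co-receptor, was at 85.4 and 154 CPM in LB PE, against 20.5 and 60.4 CPM in LB TE and did not pass the test (log2 change 1.43, adjusted p = 0.175), but passed it under 2 alternatives, among them without replicate 1 (adjusted p = 0.0406). POU5F1 (adjusted p = 0.287), SOX2 (0.377) and NANOG (0.59) lost their calls without replicate 3. DPPA3 (adjusted p = 0.118) lost its call without replicate 5. SOX2 lost its call also without replicate 2 (adjusted p = 0.0564) and NANOG without replicate 2 (0.0515). SOX2 (log2 change 2.15, adjusted p = 0.117) and NANOG (1.37, adjusted p = 0.124) were not called among cells of at least 90000 reads.

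**Figure D4:**
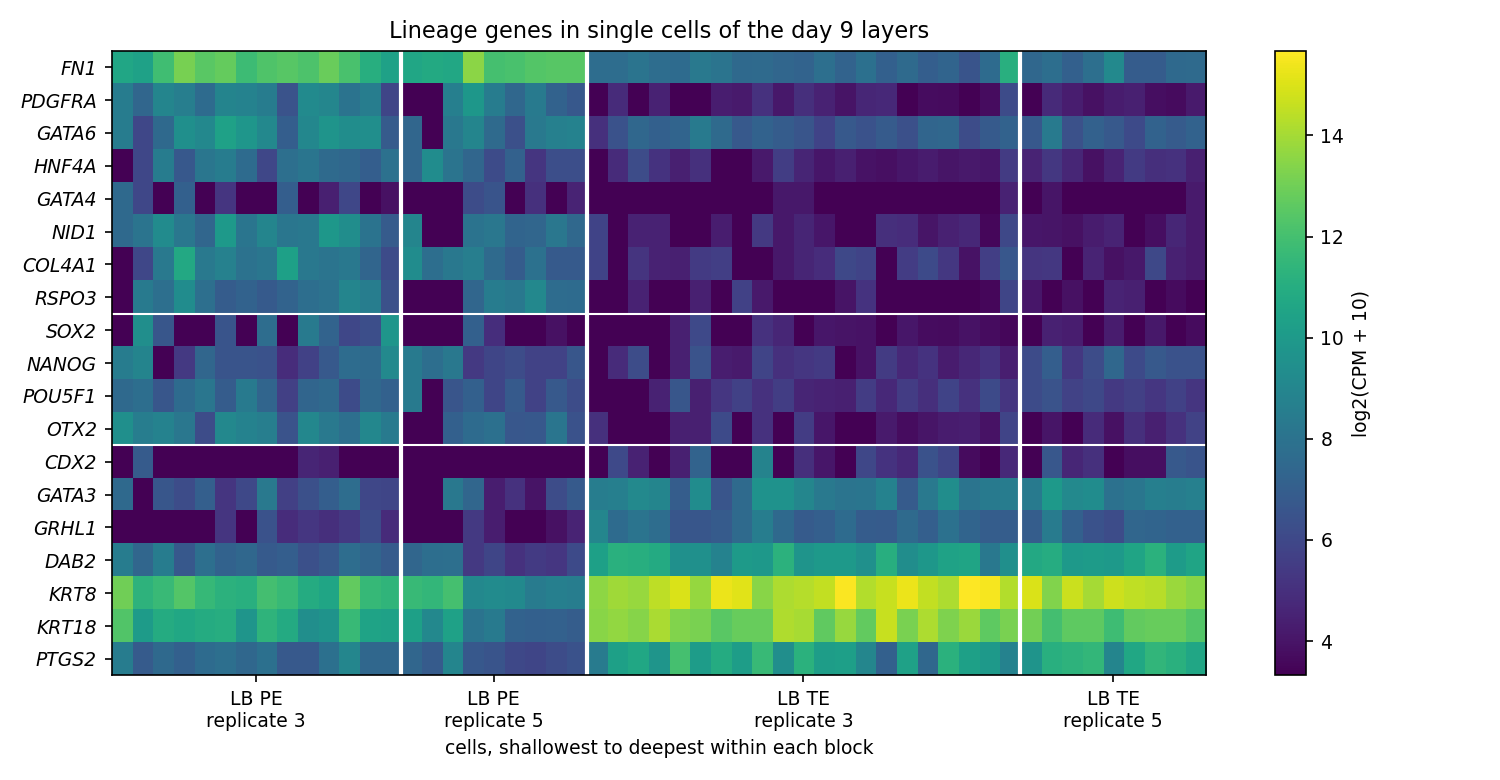
Level of 19 lineage genes, as log2(CPM + 10) by color, in each single cell of LB PE and LB TE in replicates 3 and 5 (14, 9, 21 and 9 cells), ordered within a block from fewest to most reads. FN1 and PDGFRA mark the LB PE blocks, KRT8, KRT18 and DAB2 the LB TE blocks, and SOX2 is high in 2 of the 14 LB PE cells of replicate 3.

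4 chromatin regulators were called. Of 35 epigenetic regulators, 35 were in the table and 35 were tested, of which 3 were called higher and 1 lower in LB PE, with a median log2 change of 0.42. The deacetylase HDAC8 was at 74.8 and 84.6 CPM in LB PE, against 5.85 and 12.8 CPM in LB TE (log2 change 2.24, SE 0.37, adjusted p = 0.000806). JARID2, which guides the Polycomb complex PRC2, was at 413 and 113 CPM in LB PE, against 21.3 and 29.9 CPM in LB TE (log2 change 2.69, SE 0.51, adjusted p = 0.00269). The histone demethylase KDM4A was at 104 and 107 CPM in LB PE, against 22.6 and 34.6 CPM in LB TE (log2 change 1.60, SE 0.41, adjusted p = 0.0221). The DNA methyltransferase DNMT3A fell to 566 and 404 CPM in LB PE, against 1259 and 1467 CPM in LB TE (log2 change -1.49, SE 0.37, adjusted p = 0.0184). DNMT3B was at 612 and 866 CPM in LB PE, against 171 and 196 CPM in LB TE. This log2 difference, 1.94, missed the threshold (adjusted p = 0.0809) but passed it under 9 alternatives, among them a fixed replicate block (adjusted p = 0.00947), cells of at least 90000 reads (0.00113) and without replicate 1 (0.0165). For HDAC8, JARID2 and KDM4A, LB EPI was at 85.6 ± 16.3, 336 ± 179.7 and 279 ± 39.1 CPM, above LB TE each time. JARID2 (adjusted p = 0.104) and KDM4A (0.192) lost their calls without replicate 3. KDM4A (adjusted p = 0.124) and DNMT3A (0.316) lost their calls without replicate 5.

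Few genes of the ribosome, energy metabolism and stress lists were called, and 4 genes of the cell cycle list were called higher. Of all tested genes 2.46% were called higher and 3.39% lower in LB PE. Of 42 DNA replication and mitosis genes, 42 were in the table and 41 were tested, of which 4 were called higher and 0 lower in LB PE, with a median log2 change of 0.36. The called genes were topoisomerase TOP2A (742 and 842 CPM in LB PE, against 234 and 468 CPM in LB TE, log2 change 1.23, adjusted p = 0.0451), the replication helicase subunits MCM4 (1.24, adjusted p = 0.0233) and MCM5 (0.97, adjusted p = 0.0482) and the mitotic checkpoint kinase BUB1B (1.61, adjusted p = 0.0453). Of 49 cytosolic ribosomal protein genes, 49 were in the table and 49 were tested, of which 0 were called higher and 0 lower in LB PE, with a median log2 change of 0.22. Among these 49 genes 47 log2 changes were positive, against 6463 of the 12540 tested genes. The median of the list was 0.49 without replicate 3 and 0.0016 without replicate 5. Of 39 oxidative phosphorylation genes, 38 were in the table and 38 were tested, of which 1 was called higher and 0 lower in LB PE, with a median log2 change of 0.17. The called gene was COX5B, a subunit of cytochrome c oxidase, at 1902 and 2140.0 CPM in LB PE, against 1056 and 1212 CPM in LB TE (log2 change 0.83, SE 0.24, adjusted p = 0.0433). Of 27 glycolysis genes, 27 were in the table and 25 were tested, of which 1 was called higher and 0 lower in LB PE, with a median log2 change of -0.01. Here the called gene was hexokinase 1, HK1, at 146 and 177 CPM in LB PE, against 54.0 and 60.1 CPM in LB TE (log2 change 1.35, SE 0.31, adjusted p = 0.0103). Of 44 stress, immediate early and cell death genes, 44 were in the table and 43 were tested, of which 0 were called higher and 1 lower in LB PE, with a median log2 change of -0.03. That gene was GCLM, for glutathione synthesis, at 12.3 and 1.24 CPM in LB PE, against 36.8 and 60.7 CPM in LB TE (log2 change -1.86, SE 0.45, adjusted p = 0.015). Of 36 imprinted and growth factor genes, 34 were in the table and 29 were tested, of which 0 were called higher and 1 lower in LB PE, with a median log2 change of 0.000. The called gene was MET, the hepatocyte growth factor receptor (log2 change -1.41, adjusted p = 0.0452). TOP2A (adjusted p = 0.391), MCM4 (0.141), MCM5 (0.139), BUB1B (0.307), COX5B (0.161), HK1 (0.0631) and MET (0.141) lost their calls without replicate 3. MCM4 (adjusted p = 0.101), MCM5 (0.261), BUB1B (0.0732), COX5B (0.241), HK1 (0.147), GCLM (0.42) and MET (0.25) lost their calls without replicate 5. TOP2A lost its call also without replicates 1 (adjusted p = 0.0663), 2 (0.0512), 4 (0.0602) and 6 (0.0515), MCM5 without replicates 1 (0.0716) and 2 (0.0828), BUB1B without replicates 1 (0.0643), 4 (0.0652) and 6 (0.0547), COX5B without replicates 1 (0.0779) and 2 (0.0759) and MET without replicates 2 (0.0618), 4 (0.0581) and 6 (0.0542). MCM4 (log2 change 0.76, adjusted p = 0.119), MCM5 (0.65, adjusted p = 0.134), BUB1B (0.87, adjusted p = 0.22) and MET (-1.11, adjusted p = 0.103) were not called among cells of at least 90000 reads.

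Fibroblast and epiblast markers were present in LB PE, and those of cumulus and blood cells were near 0. The summed level of 6 fibroblast markers was 266 and 1029 CPM in LB PE, against 106 and 109.9 CPM in LB TE, and none of the 6 was at 0 in either class. LB EPI was at 187 and 309 CPM, so these markers were not particular to LB PE. The median LB PE cell was at 181 and 210 CPM and the highest at 1578 and 4539 CPM. In LB EPI the highest cell was at 1060 and 3966 CPM. Of 14 fibroblast and mesenchyme genes, 14 were in the table and 13 were tested, of which 1 was called higher and 0 lower in LB PE, with a median log2 change of 1.74, and 13 of the changes were positive. Collagen III, COL3A1, was called, at 73.5 and 87.2 CPM in LB PE, against 12.3 and 11.8 CPM in LB TE (log2 change 2.03, SE 0.49, adjusted p = 0.014). COL1A1 was at 105 and 393 CPM in LB PE, against 53.4 and 49.7 CPM in LB TE (log2 change 1.81, adjusted p = 0.226), smooth muscle actin, ACTA2, at 121 and 521 CPM in LB PE, against 56.0 and 36.8 CPM in LB TE (2.25, adjusted p = 0.179) and vimentin, VIM, at 171 and 595 CPM in LB PE, against 69.6 and 75.7 CPM in LB TE (2.004, adjusted p = 0.161), and none of the 3 passed the test. VIM passed it under 4 alternatives, ACTA2 under 2 and COL1A1 under 1, and none of them among cells of at least 90000 reads. In LB PE of replicate 5, Spearman's rho between COL1A1 and reads was -0.98 (n = 9 cells), with a median of 937 CPM in the 4 cells under 90000 reads and 54.5 CPM in the 5 deeper ones. Among cells of at least 90000 reads the median log2 change of the list was 0.40, with 0 genes called, and COL1A1 was at -0.10; the part of depth or of other cells in these levels was not tested. The summed epiblast markers were at 736 and 526 CPM in LB PE, against 147 and 267 CPM in LB TE, and at 2569.9 and 2714 CPM in LB EPI. Cumulus markers summed to 4.53 and 10.4 CPM in LB PE, against 6.38 and 7.11 CPM in LB TE, and blood markers to 10.3 and 3.25 CPM in LB PE, against 24.9 and 0 CPM in LB TE. No gene of the cumulus and granulosa (8 tested), blood and endothelium (6 tested) or sperm (1 tested) lists was called by limma. Of 16 tested oocyte transcripts 2 were called higher, DPPA3 and TLE6, a protein of the maternal subcortical complex, at 17.0 and 34.9 CPM in LB PE, against 1.90 and 0 CPM in LB TE (log2 change 1.67, SE 0.46, adjusted p = 0.0322). COL3A1 (adjusted p = 0.0951) and TLE6 (0.0876) lost their calls without replicate 3. COL3A1 (adjusted p = 0.222), DPPA3 (0.118) and TLE6 (0.334) lost their calls without replicate 5. TLE6 lost its call also without replicate 1 (adjusted p = 0.0501). COL3A1 (log2 change 0.22, adjusted p = 0.797) and TLE6 (0.96, adjusted p = 0.142) were not called among cells of at least 90000 reads.

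**Figure D5:**
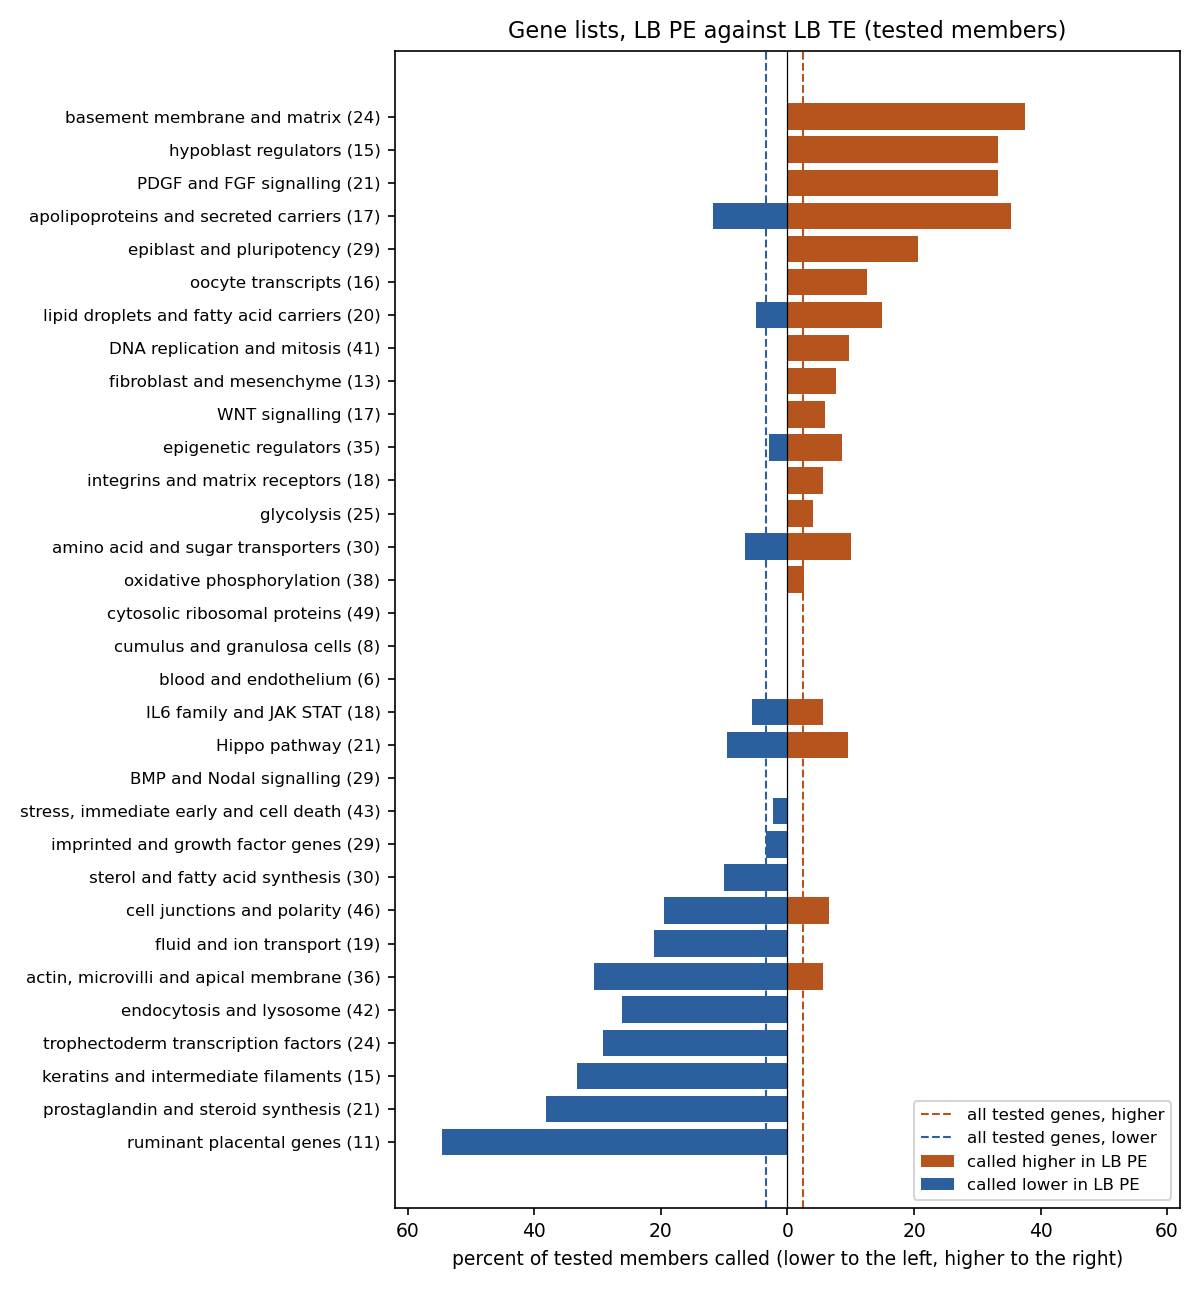
Percent of the tested members of each gene list that were called lower (blue, to the left) or higher (orange, to the right) in LB PE, with the number tested in brackets and dashed lines at 3.39% and 2.46%, the shares over all tested genes. Basement membrane genes and hypoblast regulators stand at one end and ruminant placental genes, with 6 of 11 called lower, at the other.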

How the data were processed

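The deposited table, per its values, is on a natural log scale, ln(1 + value), where the values of a cell sum to 10000, for 18825 genes in 286 cells. The authors' cell list adds a class and an age for each cell; the way classes were made is not stated. Trim Galore, HISAT2, featureCounts, Seurat and the build ARS-UCD1.2 appear in the submitters' processing notes, without order or settings, and filters or molecular identifiers are not mentioned in the sources used here. With the log undone, 100% of the values came out as whole reads (within 0.1 reads) when divided by the smallest value of their cell, which gave the assigned reads, 48628984 in all. CPM is the undone value times 100.

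Means of CPM per library and class (at least 3 cells) were taken as log2(CPM + 10). Genes at 10 CPM or more in at least 1 of all library and class means were tested. A gene high in a single mean, also of LB PE or LB TE, can pass this filter. Of the genes named, GATA4, APOA2, FGB, ETV5 and SLC7A9, among others, reached 10 CPM only in LB PE means, and SULT1E1 only in an LB TE mean. Such genes were tested only through the class where they are high, so their calls are no separate support for their lists. Limma 3.58.1 with R 4.3.3, statmod 1.5.0 and data.table (1.17.8) and the trend and robust options fitted all 7 classes of the 6 wildtype libraries, with library as a random block and LB PE minus LB TE as the contrast. Adjustment was by Benjamini and Hochberg over all tested genes, and SE is the standard error of the log2 change. Same-numbered LB PE and LB TE means come from the same library pool: their deviations correlated at 0.21 over genes, and the fitted correlation within libraries was 0.18. Whether libraries hold separate embryos is not stated, so p-values cover the spread between these libraries only, possibly technical. Members, gene lists (33, with 958 genes, of which 888 had values) and tests were chosen with earlier results of these data known. The genes named are the 12 largest rises and the 12 largest falls among called genes that have a symbol, an equal direction in replicates 3 and 5 and a mean of at least 100 CPM in the higher class; list members with a call or the smallest adjusted p; and lineage markers. The text prints some of them, some genes are not reported here, and the single cells that stood apart were chosen after their values were seen. Alternatives changed scaling, pseudocount, filter, cells, weighting, block and libraries. Gene symbols are those of the deposited table, and no sequence or coordinate was used.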

Additional observations from a re-analysis of the deposited data

Results flagged for a closer look

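The 2 LB PE cells of replicate 2 entered no average, since fewer than 3 cells were present, and so were no part of the comparison. Of 13 primitive endoderm markers looked at one by one, 11 had a higher mean over these 2 cells than any LB TE value. LB TE values here are its averages and the single LB TE cell of replicate 2. The 11 are listed for that reason, with no test. The 2 cells had 9661 and 177675 reads, so 1 read weighs far more in the shallow cell. Each value below is a mean that 1 cell alone can set, and no joint profile of both cells. The fibronectin gene FN1 was at 2581 CPM in these cells, against a highest LB TE value of 283 CPM, and the lipid carrier APOE at 1069 CPM, against 53.1 CPM. COL4A1 was at 757 CPM, against 27.2 CPM in LB TE, LAMB1 at 259 CPM, against 93.3 CPM, and LAMA1 at 104 CPM, against 38.5 CPM. NID1 was at 61.9 CPM, against 12.995 CPM in LB TE, RSPO3 at 360.2 CPM, against 68.2 CPM, and PDGFRA at 53.5 CPM, against 10.6 CPM. Among the transcription factors, GATA6 was at 166 CPM, against 129.8 CPM in LB TE, and GATA4 at 14.1 CPM, against 1.61 CPM. FOXA2 was at 81.6 CPM, against 0.824 CPM in LB TE, where the LB PE averages of replicates 3 and 5 held 4.41 and 0 CPM. SOX2 had no reads in either of these cells. The means of trophectoderm genes over these 2 cells went both ways against the single LB TE cell of replicate 2. GATA3 was at 319 CPM, against 182 CPM in that LB TE cell, IFNT3 at 155 CPM, against 108 CPM, and ATP6V0A4 at 739 CPM, against 195 CPM. KRT8 was at 3026 CPM, against 20315 CPM, CDX2 at 2.81 CPM, against 50.8 CPM, and DAB2 at 382 CPM, against 1064 CPM.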

How the results depend on the processing

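No called gene was called in the opposite direction under any alternative run. Leaving out 1 library in turn, the count of called genes ranged from 168 to 705, that of genes higher in LB PE from 121 to 300 and that of genes lower from 47 to 405. The low ends are without replicate 5, where 72.0% of called genes were higher in LB PE, in place of 42.1%. Averages of at least 1 cell, which bring in the 2 LB PE cells and the LB TE cell of replicate 2, gave 298 called genes (116 higher and 182 lower); the cause was not tested. The mean over cells of log2 values gave 1328 (207 higher, 15.6%, and 1121 lower), with the median log2 change of all genes at -0.20, and limma-voom on summed reads gave 560 (288 higher, 51.4%, and 272 lower), with that median at 0.10; the cause was not tested. Among cells of at least 90000 reads, an alternative added after the data were seen, 1096 genes were called (396 higher and 700 lower). Without the replicate block 439 genes were called (191 higher and 248 lower), and with a fixed replicate block 728; under the fixed block DAG1, ELF3, FDFT1 and DNMT3B gained a call, and FGB (adjusted p = 0.0538), SPRED2 (0.0709), DSG2 (0.0901), PAG1 (0.0825), BUB1B (0.0615) and TLE6 (0.0543) lost theirs. With only LB PE and LB TE in the fit, 81 genes (45 higher and 36 lower) were called without the block, where 2 averages a class give the spread, and 914 with the replicate block. The other alternatives (quantile normalization, pseudocounts of 1 and 50, filters, at least 5 cells, summed reads, at least 20000 reads) gave between 537 and 1020 called genes. The sign of LAMA1 changed with the mean of log2 values (-0.57), with summed reads (-0.27), with limma-voom (-0.50) and among cells of at least 90000 reads (-0.81), and that of LAMC1 with the mean of log2 values (-0.52). Without single libraries LAMC1 ranged from -0.19 to 0.999 and FOLR1 from -0.14 to 1.15. SULT1E1 was at 0.70 with averages of at least 1 cell, COL1A1 at -0.10 among cells of at least 90000 reads, and ACTB at 0 with quantile normalization. Of the 151 tested genes the text may name, the most calls lost under an alternative other than left-out libraries were 94, with only LB PE and LB TE in the fit and no block, and 63, with averages of at least 1 cell.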
